A study of Rattus norvegicus with 2 samples.

Results

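The members described here are 9 immediate-early genes: the nuclear receptor genes Nr4a1, Nr4a2 and Nr4a3, the zinc finger genes Egr1, Egr2, Egr3 and Egr4, and the immediate early response genes Ier2 and Ier3. A member's peaks are all called peaks of a histone ChIP-seq library that carry its gene name in the authors' annotation, of any class and at any distance. This gave 20 of the 28706 peaks of the library, and 5 of the 9 members had at least 1. Under the same rule 27.1% of the 23154 protein-coding genes of the RefSeq table had a peak. The genes were chosen by the presence or absence and the fold enrichment of these same peaks, so the counts describe the members and test nothing.

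The library came from myocardium of male Wistar rats with abdominal aorta constriction (AAC), in which a ligature around the aorta above the renal arteries narrows the vessel and loads the heart with pressure. The antibody is labelled by vendor and catalogue number, and its target was taken to be lactylation of histone H3 at lysine 18 (H3K18la), the mark in the series title. This is 1 ChIP library, with replicate number 3, and its input library has the same number. The input was not analysed here, and neither the rats' age nor whether they had vagal stimulation is given in the sources used here. No library of another group was analysed here, so nothing below is an effect of AAC, and no value has a replicate error. Fold enrichment is the authors' value per peak, the pile-up over the peak caller's local background.

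Immediate-early genes are transcribed within minutes of a stimulus without new protein synthesis. The NR4A proteins are orphan nuclear receptors whose activity is set mainly by how much of them is made. They act as monomers or dimers, and some of them act together with retinoid X receptors. The EGR proteins bind GC-rich DNA through zinc fingers, and some of them are restrained by the co-repressors NAB1 and NAB2. Both families are induced in heart and vessel by stretch, catecholamines and growth factors, through CREB and MEF2 factors at NR4A genes and through serum response factor with ETS partners at EGR genes.

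The RefSeq promoter table held 6 of the 9 members: Nr4a1, Nr4a2, Ier2, Egr1, Egr2 and Egr4. The 250 bases before the RefSeq start are shown for Nr4a1 and Ier2, where a peak covered an annotated start, and for Egr1 and Egr2, which had no peak. Capitals mark matches on either strand to the cAMP response element (CRE) TGACGTCA, its core TGACG, the CArG box of serum response factor, the EGR element GCGNGGGCG and the NR4A monomer element (NBRE) AAAGGTCA. These coordinates are of GRCr8 and cannot be set beside the peak positions, which are of rn6. Whether the RefSeq start is the start used in the peak annotation was not tested.
Nr4a1, GRCr8 chr7:134259888-134260137, plus strand: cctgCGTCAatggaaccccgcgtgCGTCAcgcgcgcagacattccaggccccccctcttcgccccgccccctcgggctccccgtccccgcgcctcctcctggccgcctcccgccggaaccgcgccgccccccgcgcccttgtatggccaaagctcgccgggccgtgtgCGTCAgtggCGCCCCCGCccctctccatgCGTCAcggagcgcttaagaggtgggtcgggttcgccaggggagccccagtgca
Ier2, GRCr8 chr19:40399123-40399372, plus strand: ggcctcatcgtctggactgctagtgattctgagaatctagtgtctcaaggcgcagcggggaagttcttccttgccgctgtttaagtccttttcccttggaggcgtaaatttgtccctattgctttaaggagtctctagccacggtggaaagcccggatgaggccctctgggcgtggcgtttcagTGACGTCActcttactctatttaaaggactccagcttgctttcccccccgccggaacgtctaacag
Egr1, GRCr8 chr18:26736828-26737077, plus strand: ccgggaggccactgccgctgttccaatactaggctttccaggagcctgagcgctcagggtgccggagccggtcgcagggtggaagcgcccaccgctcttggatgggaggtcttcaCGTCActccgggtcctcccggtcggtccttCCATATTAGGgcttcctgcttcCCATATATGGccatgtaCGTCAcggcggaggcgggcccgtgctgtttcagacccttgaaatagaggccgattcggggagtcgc
Egr2, GRCr8 chr20:21054442-21054691, minus strand: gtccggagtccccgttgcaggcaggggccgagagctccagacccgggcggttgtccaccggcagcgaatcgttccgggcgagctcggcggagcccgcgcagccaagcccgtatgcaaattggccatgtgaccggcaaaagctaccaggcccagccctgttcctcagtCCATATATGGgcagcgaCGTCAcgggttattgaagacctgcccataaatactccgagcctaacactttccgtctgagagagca

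The CRE core occurred in the upstream windows of both families, whether or not a peak had been called at the gene. It matched 4 times at Nr4a1, 1 time at Nr4a2, 2 times each at Egr1 and Egr4 and 1 time at Egr2, and 18.2% of all 33469 windows had at least 1 match. Ier2 had a full CRE, as 1.59% of all windows did, and its 2 core matches are the overlapping strands of that element. The CArG box matched 2 times at Egr1 and 1 time at Egr2 and not in the other 4 windows, against 1.5% of all windows. Nr4a1 was the only one of the 6 with an EGR element (4.29% of all windows), and none had an NBRE (1.24%). GC content was 74.8% at Nr4a1, 52.0% at Nr4a2, 63.2% at Egr1, 62.0% at Egr2, 68.0% at Egr4 and 53.2% at Ier2. The median over all windows was 51.2%. A match describes the letters only.

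All 3 NR4A genes had peaks, 11 in total, and each of the 3 had a peak of the promoter class. The 11 peaks covered 11391 bp, their fold enrichment ran from 3.94 to 8.87 with a median of 5.20, and every centre lay within 10 kb of the assigned start. Upstream of the assigned start lay 8 of the 11 centres, while 43.8% of all 12216 peaks within 10 kb of a start were upstream.

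**Figure D1:**
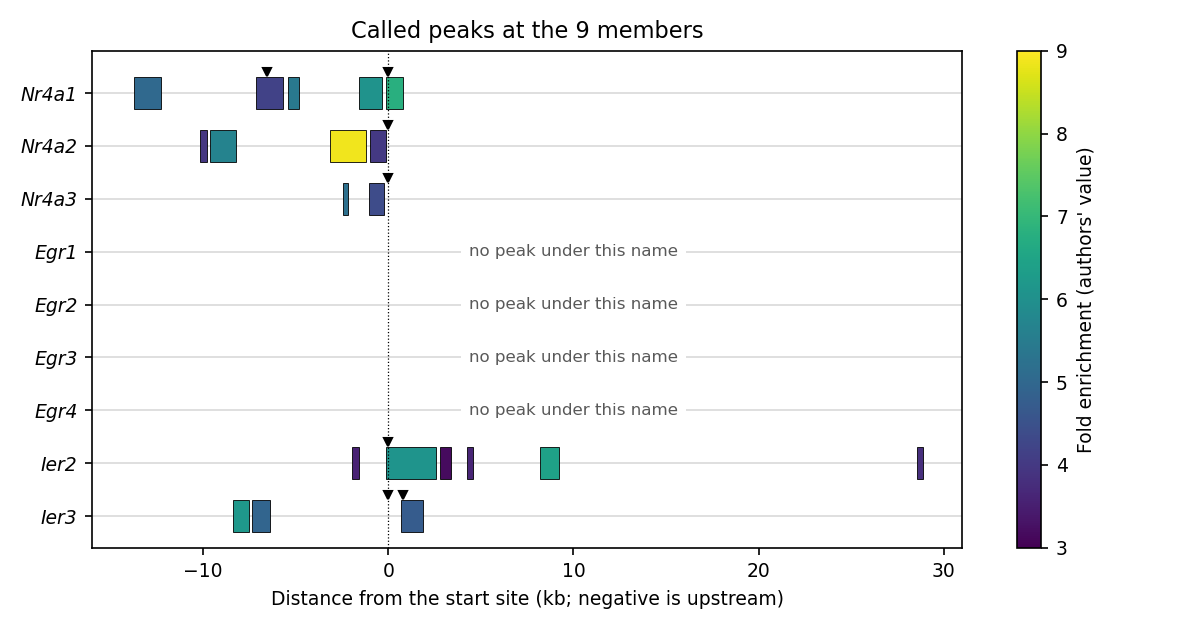
Called peaks of the 9 members by distance from the start site in kb, upstream to the left, with colour giving the authors' fold enrichment and triangles the start sites named in the annotation. The plotted 0 is the downstream start of Nr4a1 and the upstream start of Ier3. The NR4A peaks lie upstream of 0 or across it, the Ier2 peaks mostly downstream, and the 4 EGR rows are empty. At Nr4a1, 3 centres were downstream of their assigned start.

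Nr4a1, which encodes NUR77, carried 5 peaks that covered 5746 bp of a 14556 bp stretch of chromosome 7 (rn6, plus strand). The annotation places 2 starts in this stretch, at 142905758 and 142912316, and a peak covered each of them. At the downstream start a peak of 949 bp (142912170 to 142913118, intron 1 of 6) had the highest enrichment of the gene, 6.79-fold, with its summit 394 bp downstream of the start. The promoter-class peak just before it (142910721 to 142911970) had 6.08-fold and the higher −log10 q of the pair, 13.2 against 9.72. These neighbours were 199 bp apart, and the promoter-class peak ended 346 bp short of the start.

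Around the upstream Nr4a1 start the fold was lower than around the downstream one. A peak of 1480 bp in exon 1 of 2 (142905159 to 142906638) covered that start with 4.17-fold, close to the 4.13-fold median of the library. A peak of 611 bp in the following intron (142906905 to 142907515) had 5.42-fold. The most distant peak of the gene, 1456 bp wide (142898563 to 142900018), lay between genes with its centre 6.47 kb upstream of that start and had 5.03-fold. All 5 Nr4a1 peaks thus had an enrichment above the library's median, and 2 of them reached at least 6-fold.

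Nr4a2, which encodes NURR1, had the strongest peak of all members. This peak, 1941 bp wide on chromosome 3 (43120340 to 43122280), reached 8.87-fold with −log10 q of 18.5, and only 0.286% of the library's peaks (82 peaks) were at or above that fold. It was annotated as intergenic, with its centre 2.15 kb upstream of the start at 43119159 (minus strand). The promoter-class peak beside it (43119256 to 43120123) had 3.9998-fold, below the library's median, and its nearer edge stood 97 bp upstream of the start. A further pair stood farther upstream, with centres 8.93 kb (43127404 to 43128773, 5.68-fold) and 9.97 kb (43128946 to 43129316, 3.94-fold) from the start. All 4 Nr4a2 peaks were upstream and none was called in the gene body. By gene order the next named genes on both sides, Kcnj3 and Gpd2, had no peak under their names.

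Nr4a3, which encodes NOR1, had the least signal of the 3 receptor genes, with 2 peaks covering 1095 bp on chromosome 5. The promoter-class peak (63780735 to 63781564) had 4.38-fold and ended 237 bp before the start at 63781801 (plus strand). The other, 265 bp wide (63779360 to 63779624), had 5.20-fold and its centre 2.31 kb upstream. Both peaks were upstream of the start, as at Nr4a2, and at both genes the promoter-class peak had a lower fold than the next peak upstream.

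**Figure D2:**
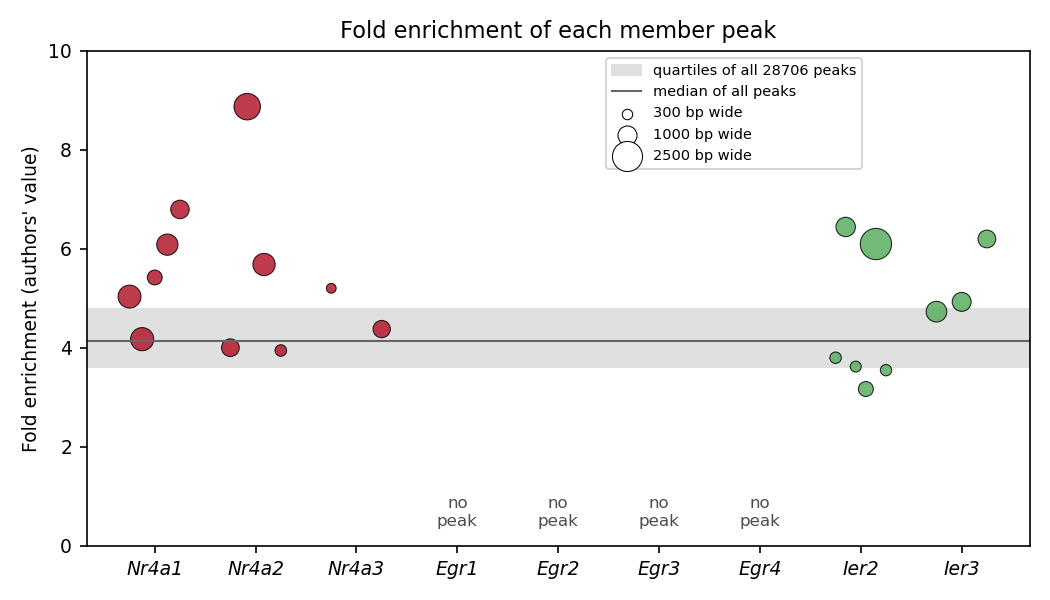
Fold enrichment of each member peak (authors' value, linear axis from 0), ordered within a gene by chromosome position, with point size giving peak width and the grey band the quartiles of all peaks (3.62 and 4.79). The Nr4a2 peak at 8.87-fold is the highest point, and the 4 EGR genes have no point.

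None of the 4 EGR genes had a peak of any class under its name. Of the neighbours that follow Egr1 by gene order, Etf1, a translation termination factor, had a peak of 4.80-fold 316 bp downstream of its start (chromosome 18, 27725219 to 27725538). On the other side Reep2 had none, and Kdm3b, a histone demethylase, had a peak of 5.07-fold 303 bp downstream of its start (27576245 to 27576620). Between these flanking peaks stood no peak of any name over 149 kb.

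For the other 3 EGR genes, long stretches without a call also stood between the nearest neighbours that had peaks. Egr2 falls between Ado and Nrbf2 on chromosome 20, whose start-site peaks of 4.09-fold and 3.45-fold bounded 281 kb without a call (22447626 to 22728425). Egr4 falls between Noto and Nat8f3 on chromosome 4, where 325 kb had no call (117183879 to 117509099), and the 5 genes next to it, Fbxo41, Cct7, Pradc1 and Smyd5 on one side and Alms1 on the other, had no peak either. Egr3 falls between Pebp4, which had no peak, and Bin3, whose promoter peak had 3.05-fold. The 186 kb before that Bin3 peak were without a call on chromosome 15 (51593088 to 51779152), and beyond them stood peaks of 4.93-fold and 4.84-fold given to the unnamed models AABR07072470.1 and AABR07018326.1. Since both peaks lie between Bin3 and Rhobtb2, the nearest marked gene on the other side, gene order does not show in which of the gaps Egr3 lies.

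The gene order used for these stretches is that of GRCr8, and the EGR start sites themselves could not be read from the rn6 peak annotation. The median gap between adjacent peaks was 4.64 kb. Gaps at least as long as the Egr1 stretch were 10.5% of all gaps but 83.9% of all gap length, and gaps at least as long as the Egr4 stretch 5.42% of gaps and 72.1% of the length. Since 27.1% of protein-coding genes had a peak, a gene without one was the usual case.

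**Figure D3:**
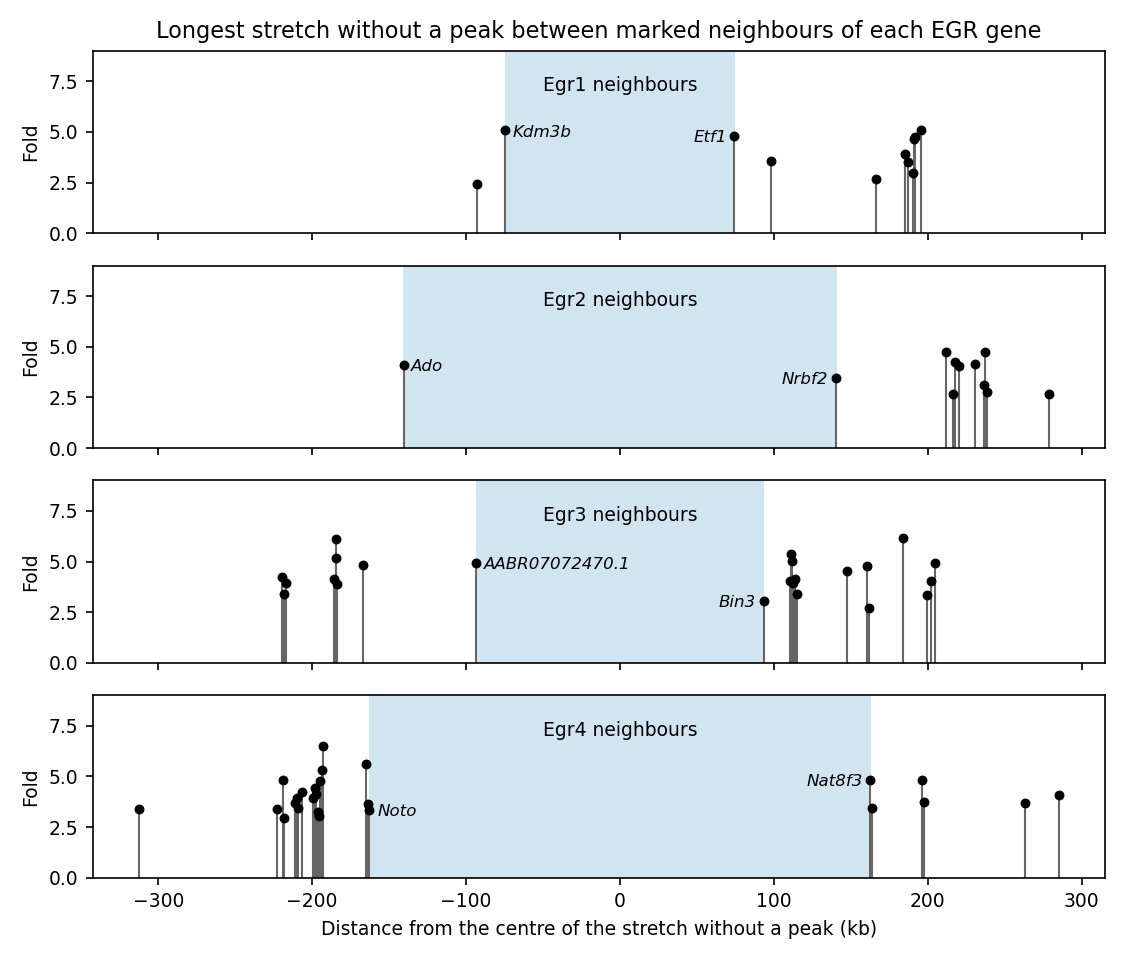
Peaks around the longest stretch without a call between the nearest neighbours of each EGR gene that had peaks, as fold enrichment (authors' value) against distance in kb from the centre of the stretch, with the shaded span free of called peaks and only peaks up to 150 kb beyond it drawn. The spans measure 149 kb (Egr1), 281 kb (Egr2), 186 kb (Egr3) and 325 kb (Egr4), and the names are those given to the peaks at their edges.

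Both IER genes had peaks, 9 in total over 8467 bp, and neither had one of the promoter class. Ier2, which encodes a small nuclear protein induced by growth factors, had the most peaks of any member, 6 on chromosome 19 (minus strand). Its broadest, 2705 bp (25773064 to 25775768, exon 3 of 3), covered the start at 25775659 and ran downstream over the gene with 6.09-fold. Only 0.739% of all peaks were at least as wide. The strongest, 6.44-fold with −log10 q of 14.8 (25766438 to 25767485), was intergenic and 8.70 kb downstream of the start. The other 4 had 3.17-fold to 3.80-fold, all below the library's median, and included the most distant peak of the set, 28.7 kb downstream. Downstream of the start lay 5 of the 6 centres. The annotation gives the Ier2 model the type pseudogene, while the RefSeq table lists Ier2 as protein-coding.

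Ier3, which encodes a stress-induced regulator of cell survival, had 3 peaks on chromosome 20 (minus strand). A peak of 1179 bp (3438890 to 3440068), classed at the transcription termination site, covered the downstream of its 2 annotated starts with 4.73-fold. A pair of intergenic peaks 155 bp apart stood with centres 6.87 kb (3447147 to 3448137, 4.93-fold) and 7.96 kb (3448293 to 3449163, 6.20-fold) upstream. The neighbouring gene Flot1, a membrane scaffold gene, had a peak of 5.44-fold with its centre 2.01 kb from that Ier3 start, on the downstream side. This was the only peak of another name within 10 kb of an annotated start of the 5 members with peaks.

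Set side by side, the NR4A genes had 5 (Nr4a1), 4 (Nr4a2) and 2 (Nr4a3) peaks and the EGR genes 0 each, beside 6 at Ier2 and 3 at Ier3. Of all protein-coding genes 14.7% had 2 or more peaks, 9.53% 3 or more, 6.83% 4 or more, 5.2% 5 or more and 4.15% 6 or more. A promoter-class peak stood at 3 of 3 NR4A and 0 of 4 EGR genes, against 9.88% of all protein-coding genes. A centre within 1 kb of a start was found at 3 NR4A genes, at Ier3 and at 17.1% of all genes. A peak of at least 6-fold was found at Nr4a1, Nr4a2, Ier2 and Ier3 and at 4.17% of all genes. The rule fixed which genes have peaks, so nothing is read from these differences beyond the values.

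The members with peaks did not stand equally high among the 6268 protein-coding genes with any peak. By the highest fold, Nr4a2 was among the top 0.893% and Nr4a1 among the top 7.47%, Ier2 at 10.6% and Ier3 at 13.4%, while Nr4a3 was at 32.6%. By covered length the order changed, with Nr4a1 at 6.30%, Ier2 at 6.91% and Nr4a2 at 9.08%, followed again by Ier3 at 14.6% and Nr4a3 at 37.8%. The order of Nr4a1, Nr4a2 and Ier2 therefore depended on the measure, while Ier3 and Nr4a3 came last on both. Without replicates, nothing can be said of whether neighbours in it differ.

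**Figure D4:**
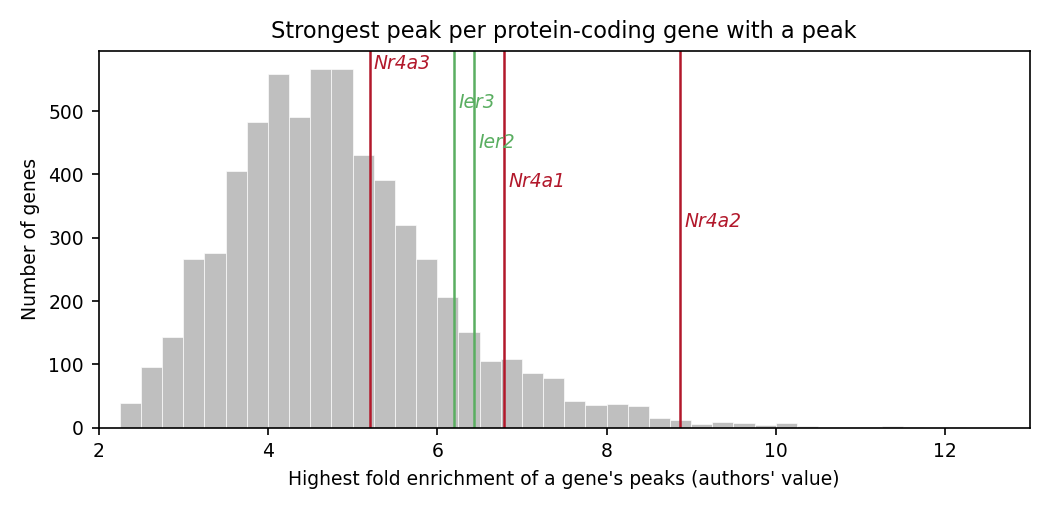
Number of protein-coding genes by the highest fold enrichment among their peaks (authors' value, bins of 0.25), with lines at the 5 members that had a peak. Nr4a2 at 8.87 lies in the far tail, Nr4a1, Ier2 and Ier3 between 6.20 and 6.79, and Nr4a3 at 5.20 near the bulk.

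Member peaks were wide and often came in close pairs. Their median width was 910 bp, against 375 bp over the library. Of the 15 gaps between adjacent peaks of 1 member, 6 (40.0%) were under 300 bp, from 155 to 266 bp, and all 4 members with more than 2 peaks had at least 1. Over the library 18.5% of the 20279 gaps between adjacent peaks of 1 gene were that short. Joining peaks less than 1 kb apart turned the 11 NR4A peaks into 7 regions and the 9 IER peaks into 6.

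By number of peaks, class of the strongest peak and highest fold, the genes most like Nr4a1 among 109 others with 5 peaks and an intron peak as the strongest were Anxa5 and Kank3, both at 6.76-fold, and Zfp385d at 6.72-fold. Those most like Ier2, among 77 others with 6 peaks and an intergenic one as the strongest, were Baalc and Hspb1, both at 6.48-fold, and Bnip3 at 6.33-fold. Egr1 has no such match, having no peak.

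Of 17 upstream regulators 13 (76.5%) had a peak, against 27.1% of all protein-coding genes, on a list put together with earlier results known and not tested. They were led by Crem, a CREB-family gene, at 7.54-fold (9.14 kb upstream of its start), the MEF2 factor gene Mef2d at 7.34-fold (1.91 kb upstream) and Mapk3, which encodes ERK1, at 7.22-fold (375 bp downstream). Srf, the factor that binds CArG boxes, had 2 peaks with a highest fold of 4.79, and Creb1 had 1 at 2.56-fold; both are named here after their values were seen. Crtc1 and Elk1 had none. Of 8 partners and co-repressors 5 (62.5%) had a peak, with the same background and limit. Nab1, the EGR co-repressor gene, had 7.45-fold at its promoter (chromosome 9, 53905786 to 53906062), and Nab2, also named after its value was seen, had 4.89-fold. Rxra, a partner of NR4A receptors, had 17 peaks with a highest fold of 5.54, while Hdac3, Ncor1 and Rxrb had none.

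Of 36 other immediate-early genes 32 (88.9%) had a peak, against 27.1% of all protein-coding genes. The median of the highest fold over these 32 was 6.32, against 4.63 over all genes with a peak. The highest were Ppp1r15a at 10.7-fold, Dusp1 at 10.1-fold and Zfp36, which encodes an mRNA decay factor, at 9.85-fold. The 4 without a peak were Atf3, Hbegf, Npas4 and Plk3. A peak of at least 6-fold, at any distance, carried the name of 20 of the 36, against 4.17% of all protein-coding genes. A promoter-class peak was found for 16 of the 36, against 9.88%, and a centre within 1 kb of the start for 25, against 17.1%. This list is not independent of earlier results either, and the members were chosen by the presence or absence of peaks. Nothing is therefore read from its share beside that of the EGR genes.

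**Figure D5:**
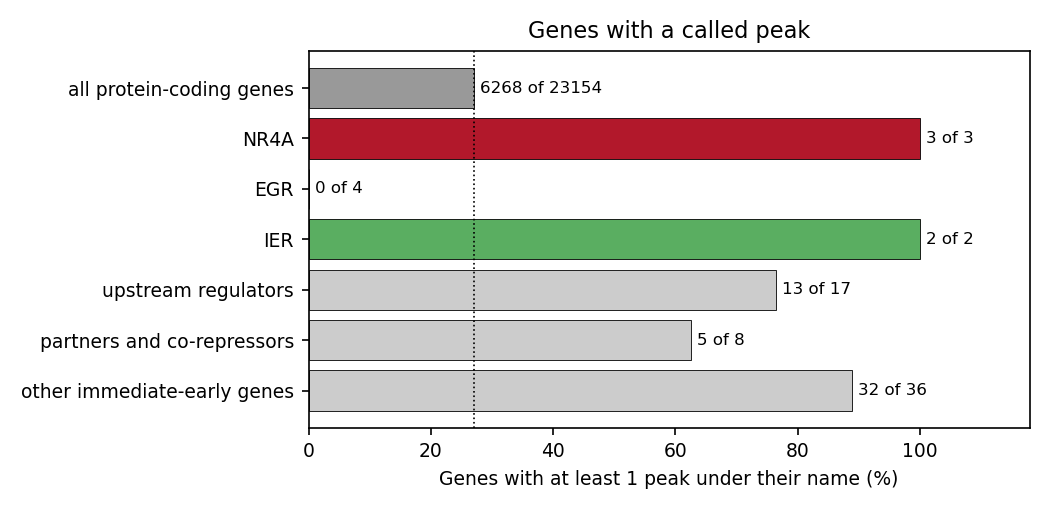
Percentage of genes with at least 1 peak under their name, for all protein-coding genes (dotted line, 27.1%), the 3 groups of members and the 3 lists of related genes, with counts beside the bars. The NR4A and IER bars reach 3 of 3 and 2 of 2, the EGR bar is at 0 of 4, and the other immediate-early genes reach 32 of 36.

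The 28706 peaks of the library covered 14.97 Mb, with a median of 4.13-fold. Depth is unknown, since the peak list holds no read totals, so a gene without a peak is one where none passed the authors' threshold at whatever depth was reached. Peaks at any distance carried the names of 8 of 10 cardiomyocyte markers, with none for Myh6 or Ryr2. The highest of these, 7.04-fold, was an intergenic peak given to Pln, 142.6 kb upstream of its start. Peaks were also given to 5 of 6 endothelial, 1 of 4 fibroblast and 1 of 3 smooth muscle markers. For immune markers the count was 1 of 4, for neuronal 1 of 2 and for hepatocyte 0 of 2. The share of all protein-coding genes with a peak was 27.1%, and lists this short do not tell low counts from that share. Which cells of the myocardium gave the NR4A signal was not tested.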

How the data were processed

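Peaks of 1 ChIP library were analysed. The authors' tools, per the submitters' processing notes, included MACS2, HOMER, Bowtie2, SAMtools, Trim Galore, FastQC and deepTools, with build rn6; versions, roles, order and the use of the input are not given in the sources used here. A path in the annotation, per the file headers, names a call at q 0.05. Deposited values are the fold enrichment (a ratio over local background), −log10 p and −log10 q per peak, and a score, per the file headers; the score was not used. Each peak's class, nearest gene and signed distance to the start were deposited by the authors from HOMER.

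Both files were joined by peak name with Python 3.11.15 and pandas 2.3.3. Start sites in rn6 were worked out from peak centres and signed distances. Of 8094 names 77.5% matched RefSeq protein-coding symbols or synonyms of GRCr8, which gave the background, gene order and promoters. Promoter windows were searched for motifs over the 250 bases before the start. Named genes were all members, the 3 highest genes and up to 3 unmarked genes of each list, gene-order neighbours and the 3 genes most like Nr4a1, Egr1 and the member with the most peaks. Some genes under this rule are not reported here. Members and lists were chosen with earlier results of these data known. With 1 library no test was run, and values have no replicate error. The region, start-site and name functions were tested on simulated data. Alternatives were stricter thresholds, distance limits, merging and assignment by distance.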

Additional observations from a re-analysis of the deposited data

How the results depend on the processing

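The alternatives with EGR values only filter or merge called peaks, so the EGR count of 0 could not rise and says nothing about stability. Members with a peak were 5 under the thresholds and within 10 kb, and 4 within 1 kb of a start. Assignment by distance alone also gave 5, but it used rn6 starts worked out from the members' own peaks. The EGR genes had no such start and were not examined, so that count could not exceed 5. EGR genes have no highest fold to vary. At −log10 q of at least 5, IER peaks fell to 5 and background genes with a peak from 6268 to 3327, while NR4A peaks were 10. At fold enrichment of at least 4, IER peaks were 5 and NR4A peaks 9. With centres within 1 kb, member peaks were 6, NR4A peaks 5 over 5377 bp, IER peaks 1 and background genes 3955. Merging peaks under 1 kb apart left 13 member regions and 7 NR4A regions. These changes follow from how each limit removes or joins peaks. No paired analysis was possible because the ChIP library is the only sample with values. Unknown depth limits what the missing EGR peaks can show.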

Other observations

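A strong peak near Nr4a1 carried the name of an unnamed model. It had 7.68-fold enrichment and −log10 q of 13.6, was given to AC119007.4 (chromosome 7, 142966719 to 142967568) and had its centre 54.8 kb downstream of the Nr4a1 start at 142912316. A peak of 4.99-fold at the promoter of the unnamed model AC119007.5 (142891284 to 142891827) lay 20.8 kb upstream of the same start. It lay 14.2 kb upstream of the other Nr4a1 start, at 142905758. On the downstream side of Ier3, a peak of 6.80-fold given to the microRNA gene Mir6328 (chromosome 20, 3393102 to 3394798) and one of 6.11-fold in an intron given to Ppp1r18, a phosphatase regulator (3395001 to 3397187), lay 46.8 and 44.7 kb from the start at 3440769. None of these counts among the members' peaks.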
